A study of Arabidopsis thaliana with 4 samples.

Results

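The comparison set gene expression in the Arabidopsis thaliana mutant hho2-1 against that in the wild type Col-0, both grown on medium without phosphate. Its members were chosen by level: of 33557 genes in the authors' table, 20341 had at least 1 FPKM in the hho2-1 library, the Col-0 library or both. FPKM is a fragment number corrected for the length of the transcript and the size of the library, so it can be compared between genes. Just inside the limit was AT4G32430, with 1.00 FPKM in hho2-1 and 0.901 in Col-0, and just outside it was AT5G06755, at 0.753 in hho2-1 and 0.996 in Col-0. Per the labels, hho2-1 is a single mutant with a T-DNA insertion from the SALK collection, in the Col-0 ecotype. The same table holds the double mutant hho2phr1 and the single mutant phr1, also a SALK insertion line, which form the second pair, the only other one that differs by HHO2 genotype alone. The labels do not say which hho2 allele the double mutant carries. Below, the hho2 allele stands for the hho2 mutation of either library, whether or not it is the same one. All 4 genotypes are of the Col-0 ecotype and grew vertically for 7 days on agar without phosphate, so no library shows a plant supplied with phosphate. The labels name no plant part, no number of plants per library and no second hho2 allele. There was 1 library per genotype, so each difference is between single libraries, has no replicate check and carries no p-value or standard deviation.

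HHO2 belongs to the HRS1 and HHO family of GARP-type transcription factors, also called NIGT1 proteins, most of which act as repressors. In Arabidopsis they are known to respond to nitrate and phosphate supply, to act on genes of nitrate uptake and phosphate starvation, and to bind promoters of their own family. PHR1, a MYB-related factor, activates many genes when phosphate is short, and SPX proteins hold it back when phosphate is ample. The noncoding RNAs IPS1 and AT4 are strongly expressed in phosphate-starved plants and sequester a microRNA of this pathway.

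The library size behind the FPKM values, estimated from genes carried by single fragments, was 44900000 fragments for hho2-1 and 48100000 for Col-0. A gene of 1 kilobase at 1 FPKM thus rests on about 35.8 fragments in hho2-1 and 38.2 in Col-0. The authors deposited a 95% interval with each value, which spans 22.8% to each side at the median gene of at least 10 FPKM. The model behind it is not stated, nor which sources of variation it covers. Genes with at least 1 FPKM numbered 20090 in hho2-1 and 20045 in Col-0. The metallothionein gene MT1A alone took 11.2% of all FPKM in hho2-1 and 13.1% in Col-0. Of the root markers, PIN2, COBL9, CASP1, PHO1 and TIP2;3 were above 1 FPKM and IRT1 was below it in both libraries. Of the shoot markers, RBCS1A, LHCB1.1, CA1, FAMA and SPCH were above 1 FPKM and GL1 was below it. RBCS1A reached 1245 FPKM in hho2-1 and 1231 in Col-0, and CASP1 reached 61.2 in hho2-1 and 78.3 in Col-0, so markers of both root and shoot were present. The flower marker PI had a level of 1.07 FPKM in hho2-1 and 1.42 in the wild type, and AP1, AG and AP3 were below 1 FPKM in both. The 4 flower markers summed to 1.66 FPKM in hho2-1 and 1.98 in the wild type. In such bulk RNA, fewer cells of a type and less RNA per cell cannot be told apart.

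HHO2 itself (AT1G68670) was lower in the mutant but not absent. The hho2-1 library held 59.8 FPKM, against 90.7 in the wild type, and the hho2phr1 library 51.8 FPKM, against 81.2 in phr1. Both libraries with the allele were below both libraries without it, by -0.59 in the first pair and -0.64 in the second on the log2(FPKM + 1) scale. All differences below are on that scale, with the mutant first. The authors' intervals of hho2-1 and Col-0 overlapped, and a total per gene cannot tell whether the transcript still runs through the insertion.

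Of the 7 family members, the other 6 were above Col-0 in hho2-1 and HHO2 was below, with a family median of 0.34 beside 0.00 over all genes compared. In hho2phr1, 3 of the 7 were above phr1 and 4 below, with a family median of -0.09. The largest difference among the other members was that of HHO3 (AT1G25550), a repressor closely related to HHO2. HHO3 stood at 186 FPKM in hho2-1, with an interval of 147 to 225, against 111 in the wild type, with an interval of 87.9 to 134. Those intervals did not overlap, which held for 103 of the 20341 genes, or 0.506%. In the second pair HHO3 stood at 149 FPKM in hho2phr1, against 107 in phr1, a difference of 0.47 with overlapping intervals. So HHO3 was high in both libraries with the hho2 allele and low in both without it.

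The remaining family members were nearer to Col-0. HHO4, also known as the flowering repressor EFM, was at 8.03 FPKM in hho2-1, against 5.47 in the wild type, and HHO6 at 11.2 in hho2-1, against 8.22 in the wild type. HHO1, a nitrate-induced member, was at 25.7 FPKM in hho2-1 and 20.2 in the wild type. HRS1, named for primary root shortening on low phosphate, was at 37.5 in hho2-1 and 33.0 in the wild type, and HHO5 at 51.4 in hho2-1 and 45.0 in the wild type. These members took both directions in the second pair: HHO6 and HHO5 were above phr1 in hho2phr1, by 0.17 and 0.12, whereas HHO1, HRS1 and HHO4 were below it, by -0.18, -0.28 and -0.09. PHR1 was at 43.2 FPKM in hho2-1 and 37.7 in the wild type, and its family of 5 genes had a median of 0.12.

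Members of the family bind sites with the letters GAATC, and their own promoters are among the known targets, so the sequence before HHO3, the member that stood apart, is shown. The RefSeq annotation of TAIR10.1 places it on the plus strand of chromosome 1, and the 250 bases before the annotated gene start are chr1:8976076-8976325, given 5′ to 3′ with GAATC on either strand in capitals.
HHO3: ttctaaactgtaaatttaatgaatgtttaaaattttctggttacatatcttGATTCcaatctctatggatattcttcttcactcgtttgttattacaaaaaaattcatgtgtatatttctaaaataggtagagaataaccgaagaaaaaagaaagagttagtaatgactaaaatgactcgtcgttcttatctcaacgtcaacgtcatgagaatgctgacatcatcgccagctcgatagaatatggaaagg
The single match lies on the minus strand, 199 bases before the start. GAATC on either strand was present in the window of 4 of the 7 family members, beside 39.1% of 20257 windows of the same length. The longer palindrome GAATATTC, also known as a binding site of the family, was present in 2 of the 7 windows, those of HRS1 and HHO1, beside 0.889% of all windows. A match is a run of letters and does not show binding.

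**Figure D1:**
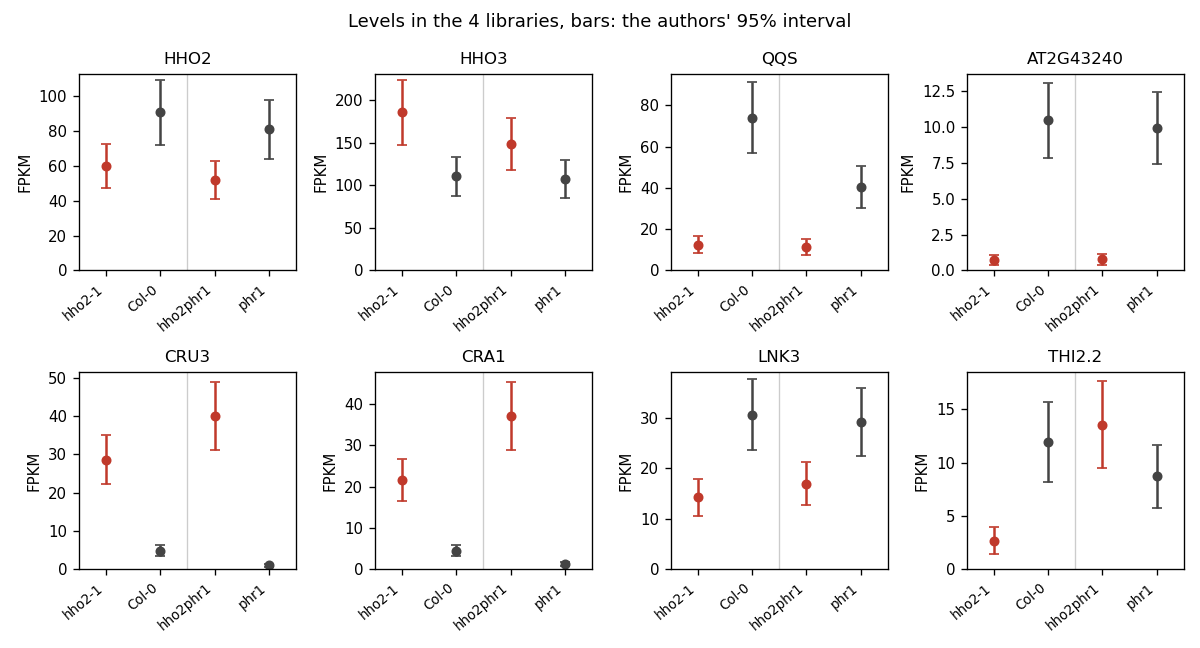
FPKM of 8 genes in hho2-1, Col-0, hho2phr1 and phr1, 1 library each; points are the authors' values, bars their 95% intervals, red the libraries with the hho2 allele. HHO2, QQS, AT2G43240 and LNK3 are low, and HHO3, CRU3 and CRA1 high, in both red libraries, while THI2.2 is low in hho2-1 and not in hho2phr1.

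Over all genes the libraries were close. The median difference was 0.00, the quartiles were -0.12 and 0.13, and 95% of genes lay between -0.45 and 0.45. Above 0 were 10236 genes (50.3%) and below 0 were 10105 (49.7%). A difference of at least 1, counted as 2-fold, was met by 85 genes higher in hho2-1 (0.418%) and 94 lower (0.462%), together 179 (0.88%). Only 16 of the higher genes (0.0787% of all compared) and 18 of the lower (0.0885%) had intervals apart as well. The 2-fold genes were mostly weakly expressed: they made up 1.84% of genes with a mean under 10 FPKM, 0.3% of those from 10 to 100, and 0.19% of those from 100 upwards.

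**Figure D2:**
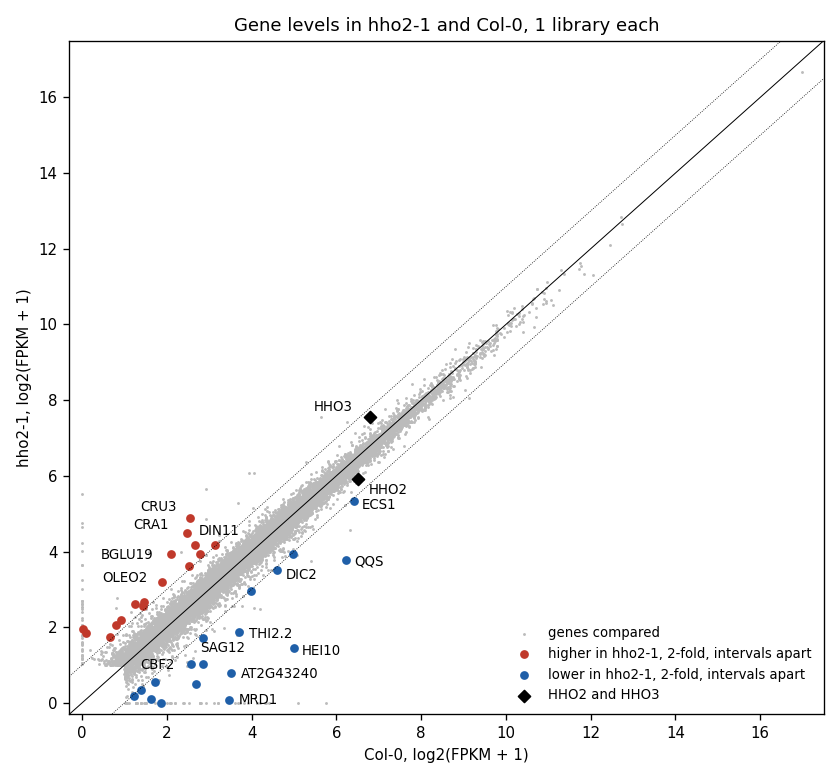
Level of each of the 20341 genes in hho2-1 (vertical) and Col-0 (horizontal), both as log2(FPKM + 1), 1 library each; dotted lines mark 2-fold. Red and blue points are the 16 higher and 18 lower genes whose intervals are also apart, black diamonds HHO2 and HHO3, and nearly all grey points lie between the dotted lines.

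Most 2-fold genes were very short. Of the 219 genes with exons under 200 nucleotides, 52 were 2-fold higher and 53 lower, together 47.9%, and none of them had intervals apart. In the longest class of the plot by exon length the share was 0.0831% of 7221 genes, with 3 higher and 3 lower. Of these, 4 had intervals apart. Genes without a RefSeq match were placed by the span of their locus interval. Among the lower genes of this class these were CPuORF35 and AT4G01328. Among the 85 higher genes, 49 were listed at 0 in Col-0, and among the 94 lower genes, 51 were listed at 0 in hho2-1. The authors' lower bound was 0 in both libraries for 54 of the higher genes and 60 of the lower. A gene of this kind rests on a few fragments or none, and its fold is therefore not given.

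**Figure D3:**
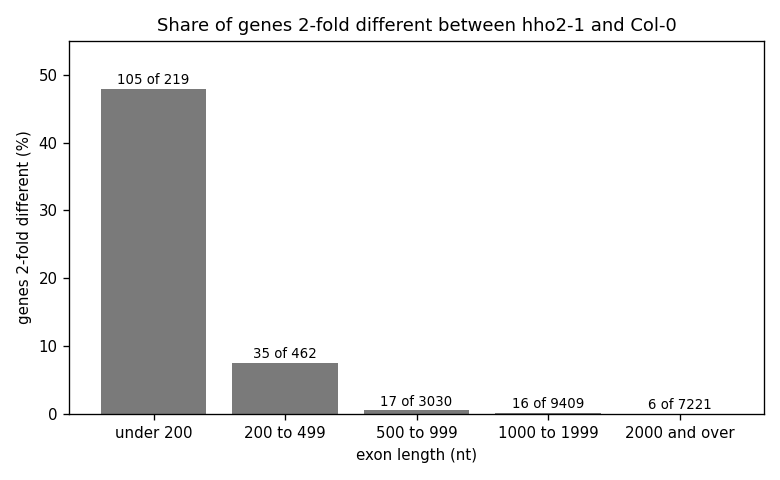
Share of compared genes that were 2-fold different between hho2-1 and Col-0, in percent, by summed exon length in nucleotides. Genes without a RefSeq match were placed by the span of their locus interval. Numbers above the bars give the genes counted. The share is 47.9% under 200 nucleotides and 0.0831% in the longest class.

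Precursor genes of microRNAs show this. Of 68 compared, 18 were 2-fold higher in hho2-1 and 12 lower (median 0.09), and none had intervals apart. Many pairs held a 0: MIR156d was listed at 25.9 FPKM in hho2-1 and at 0 in the wild type, and MIR160b at 0 in hho2-1 and 33.3 in the wild type. MIR399c was at 14.0 FPKM in hho2-1 and 32.8 in the wild type, with a lower bound of 0 in both. Of the 2-fold microRNA genes, MIR827 had the highest level. It is induced by phosphate starvation, and its product acts on the ubiquitin ligase gene NLA and on a gene of vacuolar phosphate transport. MIR827 stood at 188 FPKM in hho2-1, with an interval of 63.1 to 314, against 49.0 in the wild type, with an interval of 0 to 102. It was the largest difference, 1.92, among genes with at least 100 FPKM in either library. In the second pair it stood at 57.8 FPKM in hho2phr1, against 71.4 in phr1, so hho2-1 was the high library and the other 3 were close to each other. Its target NLA was at 27.1 FPKM in hho2-1 and 30.6 in the wild type. The mature sequence is shown because it marks which microRNA the gene makes, with bases 2 to 8, the seed, in capitals. RefSeq TAIR10.1 gives it at chr3:22122811-22122831 on the minus strand.
miR827: uUAGAUGAccaucaacaaacu

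Storage and protection genes of the seed made up 5 of the 16 higher genes with intervals apart. CRU3 and CRA1 encode 12S cruciferins, the main storage globulins of the seed. CRU3 stood at 28.7 FPKM in hho2-1, against 4.84 in the wild type, and at 40.1 FPKM in hho2phr1, against 1.02 in phr1. CRA1 stood at 21.6 FPKM in hho2-1, against 4.53 in the wild type, and at 37.2 FPKM in hho2phr1, against 1.31 in phr1. Both genes were high in the 2 libraries with the hho2 allele and low in the other 2, by 2.34 and 2.03 in the first pair and by 4.35 and 4.05 in the second. OLEO2, an oil body protein, was at 8.09 FPKM in hho2-1, against 2.71 in the wild type, and at 7.02 FPKM in hho2phr1, against 0.530 in phr1. PER1, a seed peroxiredoxin, was at 3.56 FPKM in hho2-1 and 0.878 in the wild type, and the 2S albumin gene SESA1 at 2.36 in hho2-1 and 0.584 in the wild type. These 5 had intervals apart in the first pair.

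Over all 20 genes of the seed maturation list, 15 were above Col-0, 4 below and 1 at 0 in both, and the median was 0.18, beside 0.00 over all genes compared. Of the 20, 8 reached 1 FPKM in either library and 12 did not. PER1 and SESA1 reached it only in hho2-1, so for them the limit itself required a higher level there. Among the 8, 7 were above Col-0 and 1 below, 6 were 2-fold higher, beside 0.418% of all genes compared, and the median was 1.18. The sixth 2-fold gene was OLEO1, which shares its locus interval with another gene. LEA18 differed by 0.68, and the exception was OLEO4, at 1.23 FPKM in hho2-1 and 1.68 in the wild type. In the second pair 7 of the 8 were again higher in the library with the allele (median 2.02), and over all 20 genes 16 were above phr1 and 3 below (median 0.40). Summed over all 20 genes, the list held 78.7 FPKM in hho2-1, against 22.5 in the wild type, and 106 in hho2phr1, against 7.28 in phr1. The regulators of seed development were near 0: LEC2 was listed at 0 in both hho2-1 and Col-0, LEC1 was at 0.0304 in hho2-1 and 0 in the wild type, and FUS3 at 0.265 in hho2-1 and 0.230 in the wild type. ABI3 was at 0.136 FPKM in hho2-1 and 0.00748 in the wild type, and CRU2 at 0 in hho2-1 and 0.0146 in the wild type. The part of residual seed tissue in these values was not tested.

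Seed storage genes are known for RY elements with the letters CATGCA, to which the regulators FUS3, LEC2 and ABI3 bind, so 3 of their promoters are shown. The windows are the 250 bases before the RefSeq TAIR10.1 gene start, 5′ to 3′ on the gene's strand, with CATGCA on either strand in capitals. CRA1 is chr5:17758337-17758586 on the minus strand, CRU3 chr4:14087306-14087555 on the plus strand and SESA1 chr4:13607079-13607328 on the plus strand.
CRA1: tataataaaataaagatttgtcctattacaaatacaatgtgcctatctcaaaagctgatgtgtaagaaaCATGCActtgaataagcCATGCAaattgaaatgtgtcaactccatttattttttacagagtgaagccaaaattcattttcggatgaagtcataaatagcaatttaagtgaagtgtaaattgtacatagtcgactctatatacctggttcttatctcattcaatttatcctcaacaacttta
CRU3: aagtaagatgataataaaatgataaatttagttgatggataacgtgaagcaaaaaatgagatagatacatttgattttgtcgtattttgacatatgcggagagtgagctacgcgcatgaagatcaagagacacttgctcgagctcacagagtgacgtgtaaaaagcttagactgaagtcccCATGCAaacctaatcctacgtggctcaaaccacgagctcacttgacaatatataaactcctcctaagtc
SESA1: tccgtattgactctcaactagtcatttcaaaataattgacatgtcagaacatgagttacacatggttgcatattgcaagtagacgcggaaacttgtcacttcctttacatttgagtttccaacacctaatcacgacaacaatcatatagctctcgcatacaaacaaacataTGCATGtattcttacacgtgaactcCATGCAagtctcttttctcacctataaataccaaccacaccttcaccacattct
CRA1 and SESA1 each hold 2 matches and CRU3 holds 1. Of the 8 compared genes of the list, 7 have a match in the window, beside 7.65% of all 20257 windows.

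Other genes with intervals apart were higher in hho2-1 and belong to several roles. The beta-glucosidase gene BGLU19, whose interval overlaps another gene, was at 14.2 FPKM in hho2-1 and 3.28 in the wild type, and at 15.0 in hho2phr1 and 0.736 in phr1. A pair of glycine-rich protein genes was also higher. AT5G35660 was at 5.16 FPKM in hho2-1 and 1.37 in the wild type, and higher in hho2phr1 than in phr1 by 1.78. AT2G05580 was at 5.34 FPKM in hho2-1 and 1.77 in the wild type, and at 3.95 in hho2phr1 and 0.494 in phr1. The thionin-like gene AT2G15010 was at 3.17 FPKM in hho2-1, against 0.728 in the wild type, and at 3.32 in hho2phr1, against 0.127 in phr1. NIT4, a nitrilase of cyanide detoxification, was at 17.0 FPKM in hho2-1, against 7.79 in the wild type, and at 15.3 in hho2phr1, against 8.40 in phr1. AT1G02620, annotated as a Ras-related small GTP-binding protein, was at 11.2 FPKM in hho2-1, against 4.74 in the wild type, and at 12.4 in hho2phr1, against 5.50 in phr1. For NIT4 and AT1G02620 the 2 libraries with the allele were nearly equal, as were the 2 without it. HSP17.6A, a small heat shock protein gene, was at 4.90 FPKM in hho2-1, against 1.71 in the wild type, and at 5.98 in hho2phr1, against 2.96 in phr1, with differences of 1.12 and 0.82.

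Of the other higher genes, BGLU28 had a smaller difference in the second pair and 3 were lower there. BGLU28, a beta-glucosidase of sulfur starvation, was at 14.3 FPKM in hho2-1, against 5.90 in the wild type, and at 5.02 in hho2phr1, against 3.01 in phr1. DIN11, a dark-inducible oxygenase gene, was at 17.2 FPKM in hho2-1, against 5.37 in the wild type, and at 5.09 in hho2phr1, against 8.37 in phr1, so it was higher with the allele in the first pair and lower in the second. AT1G27565 was at 2.58 FPKM in hho2-1, against 0.0669 in the wild type, and at 0.0790 in hho2phr1 and 0.244 in phr1. CPuORF13, an upstream reading frame listed as a gene that shares its interval with another, was higher in hho2-1 by 1.92 and lower in hho2phr1 by -2.10.

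Among the lower genes, AT2G43240, QQS and CPuORF35 stood far below in both pairs, with intervals apart in each. AT2G43240, annotated as a nucleotide-sugar transporter family gene, was at 0.745 FPKM in hho2-1, against 10.5 in the wild type, and at 0.792 in hho2phr1, against 9.92 in phr1. QQS, a gene found only in Arabidopsis thaliana that is known to act on starch and protein content, was at 12.6 FPKM in hho2-1, against 73.9 in the wild type, and at 11.5 in hho2phr1, against 40.4 in phr1. For both, the libraries with the allele had almost the same level, and the differences were -2.72 and -2.61 for AT2G43240 and -2.46 and -1.73 for QQS. CPuORF35, an upstream reading frame whose interval overlaps another gene, stood at 0.414 FPKM in hho2-1, against 5.47 in the wild type, and at 0.0351 in hho2phr1, against 11.01 in phr1, with differences of -2.19 and -3.54. The noncoding RNA AT2G01422 was also 2-fold lower in both, by -1.04 and -1.13. LNK3 (AT3G12320), a partner of the morning clock factors, was at 14.3 FPKM in hho2-1, against 30.7 in the wild type, and at 17.0 in hho2phr1, against 29.3 in phr1.

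Other lower genes had a smaller difference in the second pair, and this contrast between pairs was not tested. HEI10, which acts in crossing over at meiosis, was at 1.73 FPKM in hho2-1 and 30.9 in the wild type, but at 1.38 in hho2phr1 and 1.40 in phr1, so Col-0 alone was high. MRD1, which lies on the opposite strand and overlaps HEI10, also had Col-0 as the high library, at 0.0474 FPKM in hho2-1 and 10.1 in the wild type, and at 0.367 in hho2phr1 and 0.0809 in phr1. Both share their interval, so the split of reads between them was made by the authors' tool. SAG12, a cysteine protease of leaf senescence, was at 1.04 FPKM in hho2-1 and 6.25 in the wild type, and at 0.421 in hho2phr1 and 1.04 in phr1. DIC2, a mitochondrial dicarboxylate carrier, was at 10.3 FPKM in hho2-1, against 23.3 in the wild type, and at 23.8 in hho2phr1, against 36.8 in phr1. TIP2;3, a tonoplast channel for water and ammonia, was at 6.75 FPKM in hho2-1, against 14.8 in the wild type, while hho2phr1 and phr1 stood at 14.5 and 14.7.

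Defence and cold genes among the lower ones went the other way or showed little in the second pair. The thionin gene THI2.2, whose product is an antimicrobial peptide, was at 2.68 FPKM in hho2-1, against 11.9 in the wild type, but at 13.6 in hho2phr1, against 8.71 in phr1. ECS1 was at 39.6 FPKM in hho2-1, against 84.1 in the wild type, but at 202 in hho2phr1, against 130.0 in phr1. CBF2, a transcription factor of cold acclimation, was at 1.02 FPKM in hho2-1, against 4.89 in the wild type, and at 2.72 in hho2phr1, against 2.60 in phr1. Its relative DDF1 was at 0.0767 FPKM in hho2-1, against 2.08 in the wild type, and at 1.07 in hho2phr1, against 1.63 in phr1. The plastid gene RPL22, at 0.478 FPKM in hho2-1 and 2.31 in the wild type, was higher in hho2phr1 than in phr1 by 1.22, and shares its interval. The other 3 lower genes were less than 2-fold different in the second pair. The transcribed pseudogene AT1G21525 was at 2.29 FPKM in hho2-1, against 6.26 in the wild type, and at 38.2 in hho2phr1, against 48.1 in phr1, so its level was far higher in both libraries with the phr1 mutation. The noncoding RNA AT4G04223 was at 0.129 FPKM in hho2-1, against 1.33 in the wild type, and at 0.570 in hho2phr1, against 0.587 in phr1. AT1G41875 was listed at 0 in hho2-1, with an interval of 0 to 0, against 2.63 FPKM in the wild type. It was at 1.03 in hho2phr1, against 1.06 in phr1. Its wild type interval was 0.0474 to 5.20, so its intervals counted as apart only because the interval at 0 had no width.

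Set against the second pair, which shares no library with the first, the higher genes with intervals apart mostly kept their sign. In hho2phr1 against phr1, 13 of the 16 were again higher (81.2%), beside 48.4% of all genes compared there. Of the 16, 10 were again 2-fold higher (62.5%), beside 0.634%. Among these 10 were CRU3, CRA1, OLEO2, PER1 and SESA1, all of the seed maturation list, so the 10 are not unrelated genes. Of the 18 lower genes, 13 were again lower (72.2%) and 4 again 2-fold lower (22.2%), beside 51.6% and 0.472%. Of the 13, HEI10, AT4G04223, TIP2;3 and AT1G41875 differed there by only -0.01, -0.02, -0.02 and -0.02. The median in the second pair was -0.17 for the 18 lower genes and 1.72 for the 16 higher. In each direction 1 gene was 2-fold the other way, CPuORF13 among the higher and RPL22 among the lower. Counting all 2-fold genes compared in both pairs, the 56 higher in hho2-1 shared 23 with the 93 higher in hho2phr1, which is 41.1% of the first list and 24.7% of the second. The 67 lower shared 19 with 76, which is 28.4% and 25%. Against these, 10 of the 56 and 10 of the 67 were 2-fold the other way in the second pair. The sign was kept by 30 of the 56 (53.6%) and 41 of the 67 (61.2%), beside 48.4% of all genes above phr1 and 51.6% below. The median in the second pair was 0.58 for the 56 and only -0.04 for the 67. Of the shared genes, 9 higher and 13 lower had exons under 200 nucleotides. Over all 19518 genes with at least 1 FPKM in every library, the differences of the 2 pairs had a Pearson correlation of 0.01 across genes, which are not independent replicates. It was 0.00 over the 11795 with at least 10 FPKM in every library and 0.10 over the 1387 with at least 100.

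**Figure D4:**
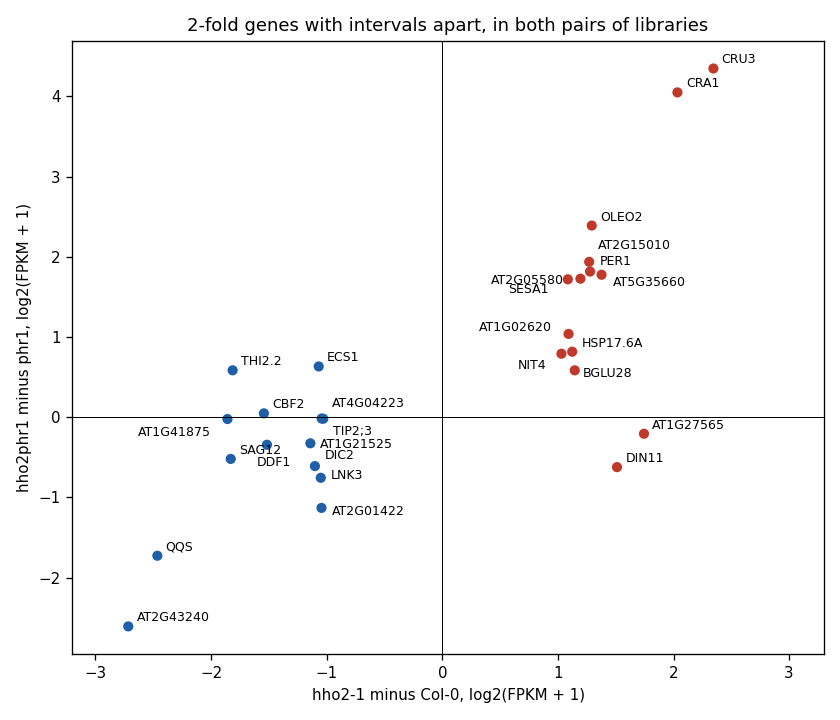
Difference in log2(FPKM + 1) of hho2-1 minus Col-0 (horizontal) and hho2phr1 minus phr1 (vertical) for the 28 genes that were 2-fold with intervals apart in the first pair and share no interval. Higher genes are red and lower ones blue; CRU3 and CRA1 lie at the upper right, AT2G43240 and QQS at the lower left, and DIN11, THI2.2 and ECS1 in the quadrants of opposite sign.

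Genes of phosphate signalling were close to Col-0. Of 16 in the list, 6 were above and 10 below, none was 2-fold different or had intervals apart, and the median was -0.07. The largest difference was that of IPS1, at 384 FPKM in hho2-1, against 544 in the wild type, and at 145 in hho2phr1, against 242 in phr1. AT4 was at 1514 FPKM in hho2-1, against 1959 in the wild type, and at 1560 in hho2phr1, against 2120 in phr1. Both noncoding RNAs were thus lower with the allele in each pair, by -0.50 and -0.73 for IPS1 and by -0.37 and -0.44 for AT4. SPX4, which holds PHR1 in the cytosol, and LPR1, a ferroxidase of root growth arrest on low phosphate, were higher by 0.25 each.

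Phosphate transport genes were on balance slightly lower, 3 of 11 above Col-0 and 8 below (median -0.14, or -0.09 over all 13 with no filter on low values). PHT1;1, the main root uptake transporter, was at 77.6 FPKM in hho2-1 and 96.5 in the wild type. PHT1;9 was lower by -0.36, while PHT1;5, which moves phosphate between organs, was higher by 0.33 and PHT1;7 by 0.28. Near-identical PHT1 genes can share reads, so their separate values are uncertain. Genes of phosphate recycling, which encode phosphatases, ribonucleases and enzymes of lipid exchange, had a median of 0.03, with 10 of 18 above. DGD1, a galactolipid synthase, was at 48.0 FPKM in hho2-1 and 37.8 in the wild type, and the ribonuclease RNS1 at 33.8 in hho2-1 and 27.2 in the wild type. No gene of these lists was 2-fold different.

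Nitrate genes, known targets of the family, had a median of 0.03, with 11 of 19 above Col-0. NRT2.5, a high-affinity transporter of nitrogen-starved roots, differed most, at 3.1 FPKM in hho2-1, against 1.75 in the wild type, and at 3.20 in hho2phr1, against 1.32 in phr1. NRT2.1, the main inducible uptake transporter, was lower in hho2-1 by -0.26 and higher in hho2phr1 by 0.62. The nitrate regulator NLP7 was higher by 0.26 and the nitrate reductase gene NIA1 by 0.23. In the second pair 17 of the 19 were above phr1 (median 0.17).

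**Figure D5:**
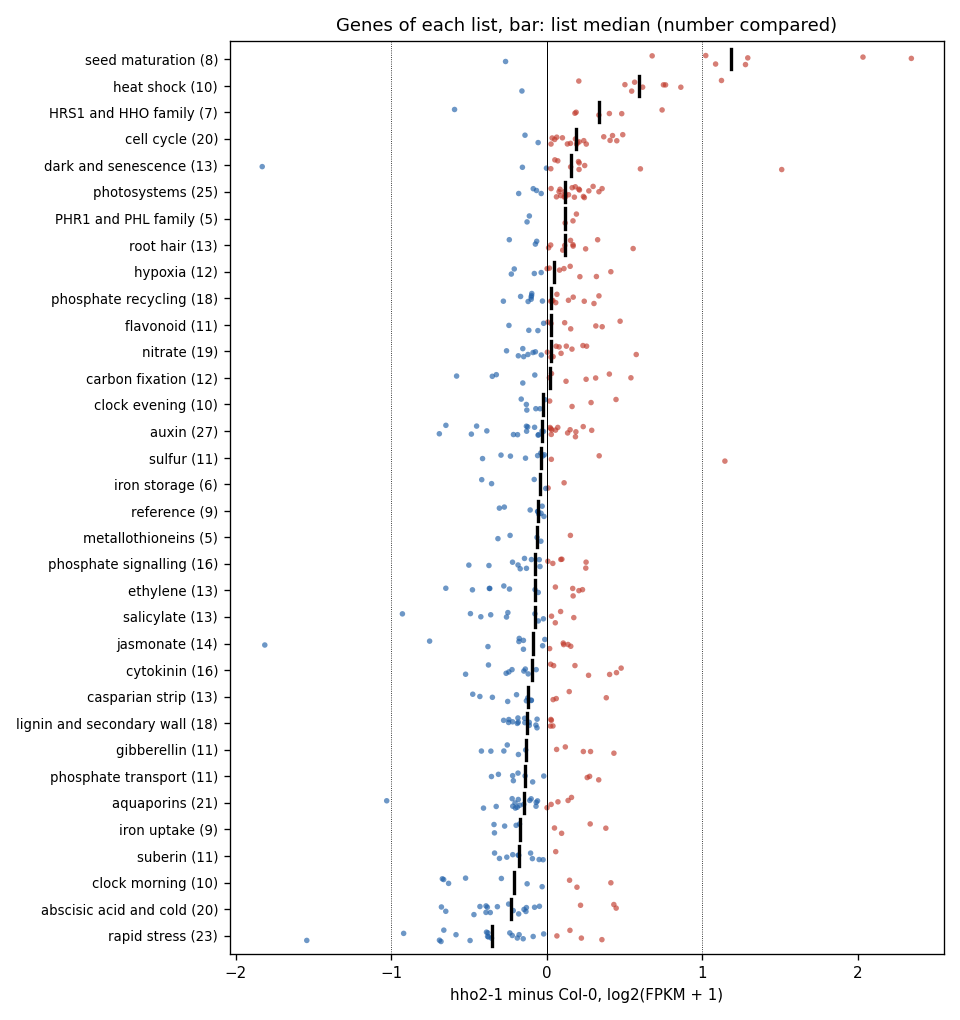
Difference of hho2-1 minus Col-0 in log2(FPKM + 1) for the compared genes of 34 lists; points are genes, red above 0 and blue below, black bars are list medians, dotted lines mark 2-fold, and the number compared is in brackets. Seed maturation is at the top with a median of 1.18 and rapid stress at the bottom with -0.36.

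Heat shock genes were the next highest list, 9 of 10 above Col-0 (median 0.59), beside 50.3% of all genes compared. HSP70 was at 25.1 FPKM in hho2-1, against 14.4 in the wild type, and HSP90.1 at 14.1 in hho2-1, against 8.0 in the wild type. BIP3, a chaperone of the endoplasmic reticulum, was at 3.79 FPKM in hho2-1 and 1.64 in the wild type. These 3 and HSP17.6A had intervals apart, beside 0.506% of all genes compared. In the second pair 8 of the 10 were below phr1 (median -0.16), beside 51.6% of all genes compared there. HSP70 was there at 27.1 FPKM in hho2phr1, against 33.4 in phr1, and so Col-0 was the lowest of the 4 libraries, with hho2-1 next.

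Genes of the cell cycle were slightly but widely higher, 18 of 20 above Col-0 (median 0.19), beside 50.3% of all genes compared. None was 2-fold different, beside 0.88% of all genes. The kinesin HIK of cell plate formation was at 5.27 FPKM in hho2-1, against 3.47 in the wild type, and the replication helicase gene MCM2 at 7.45 in hho2-1, against 5.30 in the wild type. CDC20.1, an activator of the anaphase-promoting complex, was higher by 0.45. Where PHR1 was also mutated, 16 of the 20 were below phr1 (median -0.15), beside 51.6% of all genes compared there. Root hair genes were likewise above Col-0 in 10 of 13 (median 0.12), and 9 of 13 were below phr1 in the second pair. PRP1, a wall protein gene, was at 167 FPKM in hho2-1, against 113 in the wild type, and the root hair growth regulator RSL4 at 7.82 in hho2-1, against 6.03 in the wild type.

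The lowest list was that of rapid stress responses, genes that touch or wounding induce quickly. Of 23, 19 were below Col-0 and 4 above (median -0.36), whereas 49.7% of all genes compared were below. CBF2 was 2-fold lower, beside 0.462% of all genes, and 3 of the 23 had intervals apart, beside 0.506%. CML38, a calmodulin-like protein, was at 15.8 FPKM in hho2-1, against 30.7 in the wild type, and SZF1, a zinc finger protein, at 24.1 in hho2-1, against 39.3 in the wild type, both with intervals apart. ERF6 was at 15.3 FPKM in hho2-1 and 25.2 in the wild type, and CAF1A, a deadenylase, at 19.2 in hho2-1 and 30.9 in the wild type. With phr1 as the base, 15 of the 23 were above phr1 (median 0.11), beside 48.4% of all genes compared there. CML38 was there at 31.0 FPKM in hho2phr1 and 25 in phr1, so hho2-1 was the lowest of the 4 libraries. Across the ERF and DREB families, which overlap this list, 20 of 29 were below Col-0 (median -0.12), and CBF2 and DDF1 were the only genes 2-fold lower. CBF1, at 0.360 FPKM in hho2-1 and 1.04 in the wild type, differed by -0.58. With a pseudocount of 0.1 FPKM it differed by -1.31, which is past the 2-fold limit. CBF1 reached 1 FPKM only in Col-0, so the limit on level itself required a lower value in hho2-1.

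Abscisic acid and cold genes followed the same order, 17 of 20 below Col-0 (median -0.23), beside 49.7% of all genes compared. In the second pair 16 of 20 were above phr1 (median 0.21), beside 48.4%. RD29A, a desiccation-induced gene, was at 7.35 FPKM in hho2-1, against 12.1 in the wild type, with intervals apart, and at 12.8 in hho2phr1, against 11 in phr1. CYP707A3, which inactivates abscisic acid, was at 4.92 FPKM in hho2-1 and 8.46 in the wild type, and KIN2, a cold-induced gene, at 47.2 in hho2-1 and 65.6 in the wild type. Of the 3 above Col-0, COR15A, which protects chloroplast membranes in the cold, was at 1.44 FPKM in hho2-1 and 0.793 in the wild type. The others were AT5G52300 and AT4G34000, higher by 0.43 and 0.22. COR15A reached 1 FPKM only in hho2-1, so the limit on level itself required a higher value there. Of the jasmonate genes 9 of 14 were below Col-0 (median -0.09, or -0.15 over all 16 with no filter), with JAZ7 lower by -0.75. Of the salicylate genes 9 of 13 were below (median -0.08, or -0.25 from 5 FPKM upwards). The defence gene PR1 was at 10.5 FPKM in hho2-1, against 20.8 in the wild type, with intervals apart, and at 157 in hho2phr1, against 111 in phr1.

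Barrier genes of the root, which coat the endodermis with suberin or build its lignified Casparian strip, were on balance below Col-0 as well, and none was 2-fold different or had intervals apart. Of 11 suberin genes 10 were below Col-0 (median -0.18), beside 49.7% of all genes compared. In the second pair 10 of the 11 were above phr1 (median 0.23), beside 48.4%. ABCG6, a suberin exporter, was at 8.38 FPKM in hho2-1, against 10.8 in the wild type, and at 11.6 in hho2phr1, against 7.81 in phr1. GPAT5, which makes suberin monomers, was lower by -0.30 and CYP86A1 by -0.26. Of 13 Casparian strip genes 9 were below Col-0 and 4 above (median -0.12), and 8 were above phr1 in the second pair (median 0.14). The dirigent protein gene ESB1 was at 60.5 FPKM in hho2-1 and 81.8 in the wild type. MYB36, an activator of CASP1 and ESB1, was above Col-0, at 12.9 FPKM in hho2-1, against 9.65 in the wild type, as were SGN3, RBOHF and SCR, by 0.06, 0.14 and 0.04. Of the root markers, CASP1 among them, 3 of 5 were below Col-0 (median -0.18, or -0.08 without shared intervals), and the 6 summed to 197 FPKM in hho2-1 and 235 in the wild type. The part of a smaller share of root tissue in the barrier genes was not tested.

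Lignin and secondary wall genes had a median of -0.13, with 14 of 18 below Col-0, beside 49.7% of all genes compared. In the second pair 16 of 18 were above phr1 (median 0.16), beside 48.4%. CAD5, a late enzyme of lignin monomers, was at 107 FPKM in hho2-1 and 130.2 in the wild type. C4H, an early enzyme, was at 167 FPKM in hho2-1 and 199 in the wild type. Aquaporins were below Col-0 in 16 of 21 (median -0.15), and TIP2;3 was the only one 2-fold lower. TIP2;2 was at 38.2 FPKM in hho2-1 and 51.0 in the wild type. PIP1;5, a plasma membrane aquaporin, was at 214 in hho2-1, against 268 in the wild type, and at 232 in hho2phr1, against 301 in phr1.

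Photosystem genes were slightly higher, 21 of 25 above Col-0 (median 0.12), beside 50.3% of all genes compared. Between hho2phr1 and phr1, all 25 were above phr1 (median 0.47), beside 48.4% of all genes compared there. LHCB3, an antenna protein of photosystem II, was at 538 FPKM in hho2-1, against 420 in the wild type, and at 617 in hho2phr1, against 347 in phr1. PSAD1 of photosystem I was at 1305 FPKM in hho2-1, against 1034 in the wild type, and at 1315 in hho2phr1, against 1044 in phr1. Of the shoot markers 4 of 5 were above Col-0 (median 0.13), and the 6 summed to 1548 FPKM in hho2-1 and 1536 in the wild type; their part in the photosystem values was not tested. Carbon fixation genes had a median of 0.02. The carbonic anhydrase gene CA1 was at 60.9 FPKM in hho2-1, against 91.6 in the wild type, and at 76.5 in hho2phr1, against 109 in phr1. RBCS2B, a small subunit of Rubisco, went the other way, at 93.4 in hho2-1 and 63.9 in the wild type, though near-identical copies can share its reads. Both held their direction in the second pair, by -0.51 for CA1 and 0.34 for RBCS2B.

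Of the 10 morning genes of the circadian clock, 7 were below Col-0 (median -0.21), beside 49.7% of all genes, and 6 were below phr1 in the second pair (median -0.28), beside 51.6%. Their summed level was nearly equal, 226.8 FPKM in hho2-1 and 226.7 in the wild type. The MYB factor CCA1 was at 6.68 FPKM in hho2-1, against 11.2 in the wild type, with intervals apart, and at 5.22 in hho2phr1, against 8.02 in phr1. Its partner LHY was at 3.65 FPKM in hho2-1, against 6.21 in the wild type, and RVE1 at 6.45 in hho2-1, against 10.8 in the wild type. RVE8, which acts with the LNK proteins, was at 7.71 FPKM in hho2-1 and 11.5 in the wild type. PRR7, a later repressor of CCA1 and LHY, was the highest of the list, at 83.6 FPKM in hho2-1 and 62.6 in the wild type. Evening genes had a median of -0.03, with PRR3 higher by 0.45. The labels give no time of harvest, and its part in these values was not tested.

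In the dark and senescence list 10 of 13 were above Col-0 in the first pair (median 0.15) and 10 of 13 above phr1 in the second (median 0.17). DIN11 was 2-fold higher and SAG12 2-fold lower. BGLU30, a dark-induced beta-glucosidase gene, was at 83.2 FPKM in hho2-1, against 54.4 in the wild type, with intervals apart, and at 48.2 in hho2phr1, against 31.2 in phr1. Hypoxia genes had a median of 0.05, with 8 of 12 above Col-0, but 10 of 12 were below phr1 in the second pair (median -0.51). The hypoxia regulator HRA1 was at 3.70 FPKM in hho2-1, against 2.54 in the wild type, and LBD41 at 41.4 in hho2-1, against 33.0 in the wild type.

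Hormone lists lay near the background. Auxin genes had a median of -0.03 with 12 of 27 above Col-0, cytokinin genes -0.09 with 7 of 16, gibberellin genes -0.14 with 5 of 11 and ethylene genes -0.08 with 5 of 13, the last at 0.06 when only genes from 5 FPKM upwards were kept. With no filter on low values the cytokinin and gibberellin medians were -0.03 and -0.04. GH3.3, which conjugates auxin, was at 10.5 FPKM in hho2-1, against 17.57 in the wild type, with intervals apart. The auxin response repressor IAA29 was at 15.9 FPKM in hho2-1 and 25.5 in the wild type. ACS8, an ethylene synthesis gene, was lower by -0.65, and CKX4, a cytokinin oxidase, by -0.52, while GA20OX2 of gibberellin synthesis was higher by 0.43.

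Mineral lists showed little. Sulfur genes had a median of -0.04, with 3 of 11 above Col-0 and 8 below. BGLU28 was 2-fold higher and AT5G26220 higher by 0.34, while the sulfur starvation genes LSU1 and LSU2 were lower, by -0.41 and -0.29. Iron uptake genes had a median of -0.18 over 9 genes, with the regulator FIT lower by -0.34 and the nicotianamine synthase NAS2 higher by 0.38, and iron storage genes -0.04. The iron uptake median was 0.011 without the filter on low values, -0.06 from 5 FPKM upwards and -0.07 without shared intervals. Flavonoid genes had a median of 0.03. Metallothioneins had a median of -0.06, and MT1A, the most abundant transcript, differed by -0.31. WRKY factors (55 genes), cytochromes P450 (154) and glutathione transferases (45) had medians of 0.01, -0.04 and -0.02, with no gene 2-fold different. The 9 reference genes were all below Col-0 (median -0.06).

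Among the 1681 genes with at least 100 FPKM in either library, 3 of the 4 longer genes with the largest differences were lower, and HHO3 was the higher one. AT2G05540, a glycine-rich protein gene, was at 305 FPKM in hho2-1, against 520.3 in the wild type, and at 385 in hho2phr1, against 430.2 in phr1. MLP328, of the major latex protein family, was at 972 FPKM in hho2-1, against 1618 in the wild type, and at 1434 in hho2phr1, against 1456 in phr1. AT2G16005, of the lipid recognition domain family, was at 180 FPKM in hho2-1, against 292 in the wild type, but at 473 in hho2phr1, against 312 in phr1. These 3 and HHO3 had intervals apart. The other 6 of the 10 largest differences, MIR827 among them, were of genes with exons under 200 nucleotides, and their intervals overlapped.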

How the data were processed

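Gene levels came from 4 libraries, 1 per genotype, prepared with ScriptSeq v2 per the labels' protocols. The design text speaks of poly(A)+ RNA and the molecule label of total RNA, a conflict that bears on plastid and microRNA precursor genes. Reads were aligned with TopHat2 2.0.11 and genes quantified with Cuffdiff 2.2.1 on TAIR10, per the submitters' processing notes. The deposited values are FPKM with a 95% interval and a status per gene and library, per the file headers. The library type, the annotation, the handling of reads with several alignments and the scaling between libraries are not given in the sources used here. Columns were matched to genotypes by name (WT to Col-0, dbl to hho2phr1).

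Differences were computed on log2(FPKM + 1), which understates the fold of weakly expressed genes, for genes with at least 1 FPKM in either library. A difference of at least 1 counted as 2-fold. Intervals counted as apart where they did not overlap and both status fields were OK; 6 compared genes had the status FAIL. No test was run. In all, 32810 genes matched RefSeq TAIR10.1, used for names, exon lengths and sequence. For the rest the span of the locus interval stood in for exon length. HHO names follow the published loci. Genes sharing a locus interval numbered 3381 of those compared. Depth was estimated from low genes at 1 fragment. The genes and the 37 lists (514 loci) were chosen with earlier results of these data known. Named genes are the HRS1 and HHO family with PHR1, every 2-fold gene with intervals apart, in each list the 2-fold members or otherwise up to 4 with the largest difference, and the 10 largest differences from 100 FPKM upwards; genes named beyond this rule were chosen after their values were seen. Scripts used Python 3.11.15, pandas 2.3.3 and numpy 2.4.6. The comparison step was tested on simulated 4-fold differences in genes of at least 10 FPKM in Col-0, so not on 2-fold differences or weaker genes. Alternatives covered the pseudocount, the filter on low values, scaling, shared intervals and short genes.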

Additional observations from a re-analysis of the deposited data

Results flagged for a closer look

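Several lists and genes stood on opposite sides in the pairs that differ by the hho2 allele, and no difference between the pairs was tested. Most suberin genes (median -0.18), lignin and secondary wall genes (-0.13) and abscisic acid and cold genes (-0.23) were below Col-0 in hho2-1 and above phr1 in hho2phr1, where the medians were 0.23, 0.16 and 0.21. Most heat shock genes (median 0.59) and cell cycle genes (0.19) were above Col-0 in hho2-1 and below phr1 in hho2phr1, where the medians were -0.16 and -0.15. Of single genes, THI2.2 differed by -1.81 in hho2-1 and 0.59 in hho2phr1, and ECS1 by -1.07 in hho2-1 and 0.63 in hho2phr1. RPL22 differed by -1.16 in hho2-1 and 1.22 in hho2phr1, DIN11 by 1.51 in hho2-1 and -0.62 in hho2phr1, and CPuORF13 by 1.92 in hho2-1 and -2.10 in hho2phr1. RPL22 and CPuORF13 share their locus interval with another gene.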

How the results depend on the processing

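The counts of 85 higher and 94 lower genes became 147 and 145 with a pseudocount of 0.1 FPKM, 41 and 50 from 5 FPKM upwards, 33 and 41 without genes under 200 nucleotides of exon, and 16 and 18 with the authors' intervals apart as well. They were 90 and 93 after rescaling by the median ratio of 0.99, 76 and 82 without shared intervals, 85 and 94 with no filter, and 84 and 94 without status FAIL, the last chosen after seeing the data. Among 494 listed or named genes, no difference of at least 0.1 changed sign under the pseudocount, filter, scaling, shared-interval or short-gene alternatives. This was fixed in advance: a pseudocount keeps the sign, filters and exclusions only drop genes, and rescaling by 0.99 shifts values too little. With a pseudocount of 0.1 FPKM, 15 of the 494 differences moved by more than the combined intervals of the authors. All moved away from 0, as any difference does with a smaller pseudocount. The median of the seed list was 1.18, and became 1.70 with that pseudocount, 1.66 from 5 FPKM upwards and 0.19 with no filter, where genes near 0 enter. The heat shock median of 0.59 became 0.70 with that pseudocount. From 5 FPKM upwards the salicylate median was -0.25, against -0.08, and the ethylene median 0.06, against -0.08. The iron uptake median of -0.18 became 0.011 with no filter, -0.06 from 5 FPKM upwards and -0.07 without shared intervals. The root marker median of -0.18 became -0.08 with no filter and -0.08 without shared intervals. With no filter, genes listed at 0 in both libraries were left out. The labels number no replicates, and a fit of the hho2 allele over both pairs with the PHR1 genotype as a block was not run, so the differences of each pair stand side by side. Depth limits short genes most, where a few fragments or none decide the level.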
